A study of Mus musculus with 8 samples.

Results

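Polysomal RNA was compared with total RNA from wildtype (WT) mouse embryos, gene by gene, over the 5802 genes that are listed in both deposited count tables. The total RNA table holds 24420 rows, the polysomal one holds 5804, and together they name 24419 distinct genes. The sources used here do not say how the rows of the polysomal table were chosen, so every statement below is about the shared genes alone. After a filter on low counts, 5739 of the 5802 genes were tested and 63 were left out.

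The WT libraries came from brain at stage E11.5, described in the growth protocol as neural tube, in 2 replicates of total RNA and 2 of polysomal RNA. The WT embryos are the controls of a study of Lin28a-/-;b-/- double knockout embryos of the same stage, whose 4 libraries were not used here except in 1 alternative fit. The labels name neither the strain nor the number of embryos behind a library, give no protocol for collecting polysomes, and do not tie the replicates to different litters or pools. The p-values therefore measure the spread between these libraries, which may be technical.

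A polysome is a messenger RNA (mRNA) with several ribosomes on it, and it sediments faster in a gradient than a free RNA or a single ribosome. An mRNA that is translated by many ribosomes is found mostly in polysomes. An mRNA that is stored, repressed at initiation or kept in the nucleus is found mostly outside them, and so are most noncoding RNAs. At this stage the neural tube is made up largely of dividing neural progenitors and of the first neurons, with blood cells, vessels and adjoining mesenchyme as possible admixtures.

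The shared genes took 66.2% of the counts of each total RNA library (10364686 and 9962513 counts) and 99.99% of those of each polysomal library (14872331 and 15413032 counts). Values are given as CPM, a gene's count scaled to a common library size over the shared genes, with sizes adjusted by TMM (a trimmed mean of gene ratios). A log2 fold change is polysomal minus total RNA throughout, so a negative value means less RNA of that gene in the polysomal fraction relative to the typical shared gene. This scale cannot show a shift of all mRNAs into or out of polysomes. Pearson's r over genes on the log2 scale was 0.99 or higher between replicates (0.9945 in total and 0.9963 in polysomal RNA) and 0.9869 to 0.9875 between fractions. Fraction and table cannot be told apart, since each fraction was deposited in a table of its own.

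The 2 genes deleted in the study's knockout embryos were both present in all 4 WT libraries. Lin28a, which encodes an RNA-binding protein that blocks maturation of let-7 microRNAs, was at 113.3 and 111.2 CPM in total and 107.4 and 96.29 CPM in polysomal RNA, a log2 difference of -0.14 ± 0.07 (SE) with an adjusted p of 0.113. Lin28b, its paralogue, was at 198.3 and 188.8 CPM in total and 159.2 and 147.4 CPM in polysomal RNA. This was lower in polysomal RNA by 0.34 on the log2 scale (log2 fold change -0.34 ± 0.05, adjusted p = 5.9e-05). Adjusted p-values are from edgeR's quasi-likelihood test with Benjamini-Hochberg adjustment over all 5739 genes. Among cell type markers in the whole total RNA table, the 8 neural progenitor ones summed to 2668 and 2666 CPM. The 9 neuronal ones summed to 4671 and 4684 CPM, and none of either set was at 0. Of markers of other cell types, the 7 erythroid ones summed to 4423 and 4492 CPM, the 7 mesenchymal ones to 286.5 and 270.4 CPM and the 7 endothelial ones to 166.2 and 168.8 CPM. The 3 neural crest markers summed to 58.78 and 60.02 CPM and the 5 macrophage markers to 29.07 and 27.36 CPM. The 4 epithelial markers summed to 6.39 and 7.50 CPM and the 5 muscle markers to 1.92 and 2.52 CPM, with 3 muscle markers at 0 in 1 library each.

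Many shared genes differed between the fractions, mostly by little, and the large differences were nearly all toward less RNA in polysomes. At an adjusted p under 0.05, 1981 of 5739 genes differed, which is 34.5%. Of these, 945 (16.5%) were higher and 1036 (18.1%) lower in polysomal RNA. Counts of calls in the gene lists below are to be read against these shares. With library size taken as the plain sum of the shared genes, without TMM, 1446 genes were higher and 780 lower, so the share of higher calls rose from 47.7% to 65%. The sizes were small, with a median of 0.25 on the log2 scale among the genes called. The middle 50% of tested genes lay between -0.14 and 0.12. A difference of more than 2-fold was called for 32 genes in the lower direction (0.558% of those tested) and for 2 in the higher direction. Those 2, Btla (log2 fold change 1.63 ± 0.55) and 2310069G16Rik (1.30 ± 0.43), were named after their values were seen, and the highest of their library values was 3.502 CPM. Btla did not pass without replicate 1 of total RNA (1.51) or of polysomal RNA (1.19), and 2310069G16Rik passed only without replicate 2 of total RNA among the 4 fits that leave out a library. The CPM ranges of the fractions did not overlap for 3777 genes, 65.8% of those tested.

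**Figure D1:**
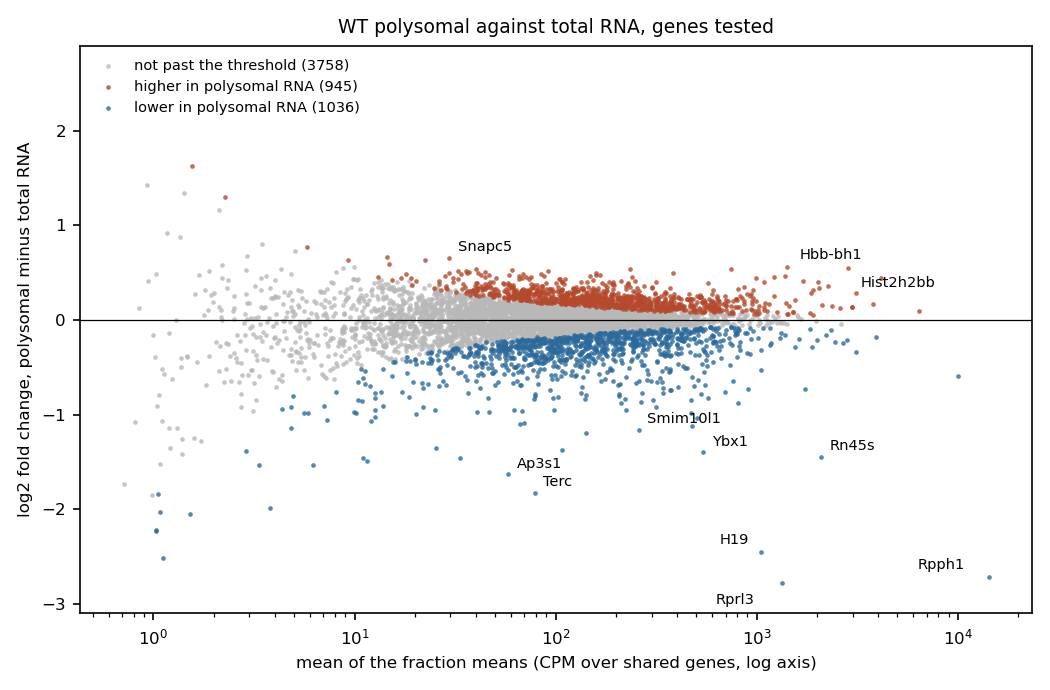
Log2 fold change of WT polysomal minus total RNA (y axis) against the mean CPM of the 2 fractions (x axis, log scale) for the 5739 genes tested. Each point is a gene; red points (945) passed the threshold as higher in polysomal RNA and blue points (1036) as lower, and the points beyond -2 at high CPM are Rpph1, Rprl3 and H19.

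The lowest values belonged to structured RNAs that are not translated. Of 14 tested genes on a list of ribosomal and structured small RNAs, 10 were lower in polysomal RNA and none was higher, with a median log2 fold change of -0.79, against 0.00 over all tested genes. Without replicate 1 of total RNA 9 were lower and 3 higher. One of the 10, Lars2, is a protein-coding gene that the list also holds. Their summed level fell from 43920 and 41490 CPM in total RNA to 13810 and 13150 CPM in polysomal RNA. As a share of counts over the shared genes this was 4.30% and 4.08% against 1.41% and 1.34%. The 2 lowest of all genes belong to RNase P, the ribonucleoprotein that trims the 5′ leader from transfer RNA precursors: Rpph1 is its RNA component and Rprl3 an RNase P RNA-like gene. Their sequences are shown because they resemble each other closely. Of their 50-base windows, 68.2% of those of Rpph1 and 2.91% of those of Rprl3 occur unaltered in transcripts of another gene. A related RNA, Rmrp, the RNA component of RNase MRP, which acts in ribosomal RNA processing, is shown beside them. Sequences are from GENCODE M21 on GRCm38, read 5′ to 3′, with the first 290 of 319 bases of Rpph1 and all of the other two. Capitals mark the longest stretch that Rpph1 and Rprl3 share, 37 bases from position 109 of both.
Rpph1 (chr14:50807449-50807767, minus strand): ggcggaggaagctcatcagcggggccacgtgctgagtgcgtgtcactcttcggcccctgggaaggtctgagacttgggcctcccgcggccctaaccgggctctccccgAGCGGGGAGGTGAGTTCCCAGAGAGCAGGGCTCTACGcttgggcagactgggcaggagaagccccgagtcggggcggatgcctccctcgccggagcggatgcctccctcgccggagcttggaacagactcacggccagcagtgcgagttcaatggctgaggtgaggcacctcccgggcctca
Rprl3 (chr8:3803069-3803358, minus strand): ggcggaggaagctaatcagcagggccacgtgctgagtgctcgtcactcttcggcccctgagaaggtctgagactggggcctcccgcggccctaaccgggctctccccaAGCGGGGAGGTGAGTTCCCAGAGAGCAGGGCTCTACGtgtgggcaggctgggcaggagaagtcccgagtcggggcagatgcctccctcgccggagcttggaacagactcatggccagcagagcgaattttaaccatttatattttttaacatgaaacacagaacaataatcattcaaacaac
Rmrp (chr4:43492788-43493058, minus strand): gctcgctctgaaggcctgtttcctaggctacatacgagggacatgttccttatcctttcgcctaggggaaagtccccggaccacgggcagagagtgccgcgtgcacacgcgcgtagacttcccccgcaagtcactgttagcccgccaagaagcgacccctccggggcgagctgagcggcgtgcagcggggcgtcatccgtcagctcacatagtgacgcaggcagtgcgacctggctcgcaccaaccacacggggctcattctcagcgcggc
Over 257 aligned columns Rpph1 and Rprl3 were identical at 222 (86.4%), whereas the longest run that Rpph1 shares with Rmrp is 9 bases.

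Rpph1, the most abundant shared RNA in total RNA, was at 25370 and 24160 CPM in total and 3875 and 3644 CPM in polysomal RNA. This is 6.59-fold lower in polysomal RNA (log2 fold change -2.72 ± 0.02, adjusted p = 1.2e-25), and the fractions lie far apart. Rprl3 was at 2345 and 2319 CPM in total and 351.5 and 329.4 CPM in polysomal RNA, 6.85-fold lower (log2 fold change -2.78 ± 0.03). The longest run that Rpph1 and Rprl3 share is 37 bases, so the shared 50-base windows of each lie in transcripts of other genes. How reads that fit more than 1 gene were counted is not known here. The levels of both are therefore uncertain, that of Rpph1 most. Rmrp, added after its values were seen, differed far less: it was at 12740 and 11500 CPM in total and 8164 and 7866 CPM in polysomal RNA, a log2 fold change of -0.60 ± 0.03. Terc, the telomerase RNA, was at 121.6 and 124.2 CPM in total and 34.36 and 35.03 CPM in polysomal RNA, 3.54-fold lower. Rn45s, the precursor of ribosomal RNA, fell from 3031 and 3085 CPM to 1180 and 1070 CPM, 2.72-fold lower. The labels do not say whether ribosomal RNA was depleted from the libraries. The snRNAs of the minor spliceosome, named after their values were seen, were low in counts, and their calls depended on single libraries. Rnu11 was at 7.977 and 10.5 CPM in total and 5.22 and 4.585 CPM in polysomal RNA (-0.91 ± 0.24), and did not pass without replicate 2 of polysomal RNA (-0.82). Rnu12 was at 12.61 and 7.036 CPM against 5.22 and 4.267 CPM (-1.05 ± 0.27), and was at -0.57 without replicate 1 of total RNA (adjusted p = 0.151). By annotation class, 11 of 21 small structured RNA genes were lower and none higher, with a median log2 fold change of -1.05.

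Many long noncoding RNAs were also lower in polysomal RNA, and 3 were higher. Of 90 tested genes annotated as long noncoding, 36 were lower and 3 higher, with a median log2 fold change of -0.35. Of the 5565 protein-coding genes, 967 (17.4%) were lower and 934 (16.8%) higher, with a median of 0.01. H19, an imprinted long noncoding RNA of embryonic tissue, was at 1768 and 1804 CPM in total and 324 and 327.1 CPM in polysomal RNA, 5.49-fold lower (log2 fold change -2.46 ± 0.03, adjusted p = 1.64e-24). Mir17hg, the host transcript of a microRNA cluster, fell from 35.94 and 37.01 CPM to 14.54 and 14.07 CPM, 2.55-fold lower. Rian, a maternally expressed host of small nucleolar RNAs, fell from 344.7 and 338.6 CPM to 183.5 and 192 CPM (log2 fold change -0.86 ± 0.04). Among 10 tested long noncoding RNAs of a list of well-known ones, 4 were lower and 2 higher. The 2 higher ones were Tug1, at 773.2 and 781.5 CPM in total and 854 and 853 CPM in polysomal RNA (log2 fold change 0.14 ± 0.03), and Dlx6os1, an antisense transcript of the Dlx6 locus (0.28 ± 0.07, adjusted p = 0.00221). Both sets of libraries are apart for each of these RNAs, as is so for 65.8% of all tested genes. The strand setting used for counting is not known here, so reads from a gene on the opposite strand may be included.

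The 15 genes lowest in polysomal RNA by the naming rule (called at 0.05, fractions that do not overlap, and 5 CPM or more on average) include 9 protein-coding genes. Ybx1, which encodes a Y-box protein that packages mRNAs, was at 807.2 and 768 CPM in total and 294.5 and 305.6 CPM in polysomal RNA. It was 2.62-fold lower in polysomal RNA (log2 fold change -1.39 ± 0.03, adjusted p = 1.04e-17). No protein-coding gene with as low a value had a higher mean CPM, and 25.1% of its 50-base windows also occur in transcripts of another gene. Arl2bp, a binding partner of a small GTPase, fell from 654.4 and 653 CPM to 302.4 and 300.3 CPM (log2 fold change -1.12 ± 0.03). Smim10l1, a predicted small membrane protein, fell from 362.3 and 355.3 CPM to 160.1 and 161.4 CPM (-1.16 ± 0.04). In each of these mRNAs the replicates agree closely, and the fractions do not overlap, as the naming rule requires. Cnih2, an auxiliary protein of glutamate receptors, was at 195.8 and 197.2 CPM in total and 90.65 and 80.81 CPM in polysomal RNA (-1.20 ± 0.06). Pkig, an inhibitor of protein kinase A, was at 146.7 and 164 CPM against 59.86 and 60.37 CPM (-1.37 ± 0.07). Ap3s1, a subunit of a vesicle adaptor complex, was at 86.46 and 89.32 CPM against 30.06 and 26.75 CPM (-1.63 ± 0.09), and 31.8% of its windows are shared with another gene. Trim7, a ubiquitin ligase, was at 52.19 and 45.78 CPM against 18.57 and 17 CPM (-1.46 ± 0.12). The other 2, Il17d, a cytokine (-1.53 ± 0.29), and Hsd3b6, a steroid dehydrogenase (-1.46 ± 0.20), were low in counts, at no more than 17.13 CPM in any library. The shortest coding sequences of these mRNAs are those of Smim10l1 (204 nt) and Pkig (231 nt).

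The 15 genes highest in polysomal RNA by the same rule are all protein coding, and their differences were smaller, from 0.52 to 0.77 on the log2 scale. They include an embryonic globin and 3 histone genes. Hist2h2bb, an H2B histone, was at 2331 and 2281 CPM in total and 3380 and 3358 CPM in polysomal RNA, 1.46-fold higher (log2 fold change 0.55 ± 0.02, adjusted p = 5.6e-15). Hist1h2bb, another H2B gene, rose from 620.3 and 594.7 CPM to 873.7 and 886.9 CPM (0.54 ± 0.03), and Hist1h2ag, an H2A gene, had a log2 fold change of 0.52 ± 0.07. The 3 histone genes share 40.1% to 78.9% of their windows with other genes, so reads may be split among copies. Snrpd3, a core protein of spliceosomal snRNPs, was at 195.4 and 185.5 CPM in total and 275.8 and 278 CPM in polysomal RNA (0.54 ± 0.04). Snapc5, a subunit of the complex that activates snRNA promoters, rose from 23.64 and 22.23 CPM to 37.73 and 34.71 CPM (0.66 ± 0.12, adjusted p = 1.62e-04). The centromere proteins Cenpq (0.53 ± 0.08) and Cenph (0.52 ± 0.10) and also the WASH complex subunit Ccdc53 (0.53 ± 0.10) rose by similar amounts. For all of these the polysomal libraries are above both total RNA libraries, which the naming rule requires.

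The remaining genes among the 15 highest were low in counts, and their calls depended on single libraries. Qpct, a glutaminyl cyclase, was at 4.924 and 3.671 CPM in total and 7.598 and 7.132 CPM in polysomal RNA (log2 fold change 0.77 ± 0.26). It did not pass without replicate 2 of total RNA (0.58, adjusted p = 0.124), or without replicate 1 (0.73) or 2 (0.82) of polysomal RNA. Pgam1, a glycolytic mutase with 41.5% of its windows shared with other genes, had a log2 fold change of 0.64 ± 0.22 and fell to 0.37 without replicate 2 of polysomal RNA (adjusted p = 0.454) and to 0.51 without replicate 2 of total RNA (adjusted p = 0.0772). Nptx2, a neuronal pentraxin (0.59 ± 0.18), fell to 0.37 without replicate 1 of total RNA, and did not pass without replicate 1 (0.57) or 2 (0.61) of polysomal RNA either. Ndufb4, a subunit of respiratory complex I (0.67 ± 0.17), was at 0.52 without replicate 1 of polysomal RNA (adjusted p = 0.143). Gabarapl2, an autophagy protein (0.63 ± 0.14), was at 0.51 without replicate 2 of polysomal RNA (adjusted p = 0.0539). Hbb-bh1, the globin of this set, is described with the other red cell genes below.

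**Figure D2:**
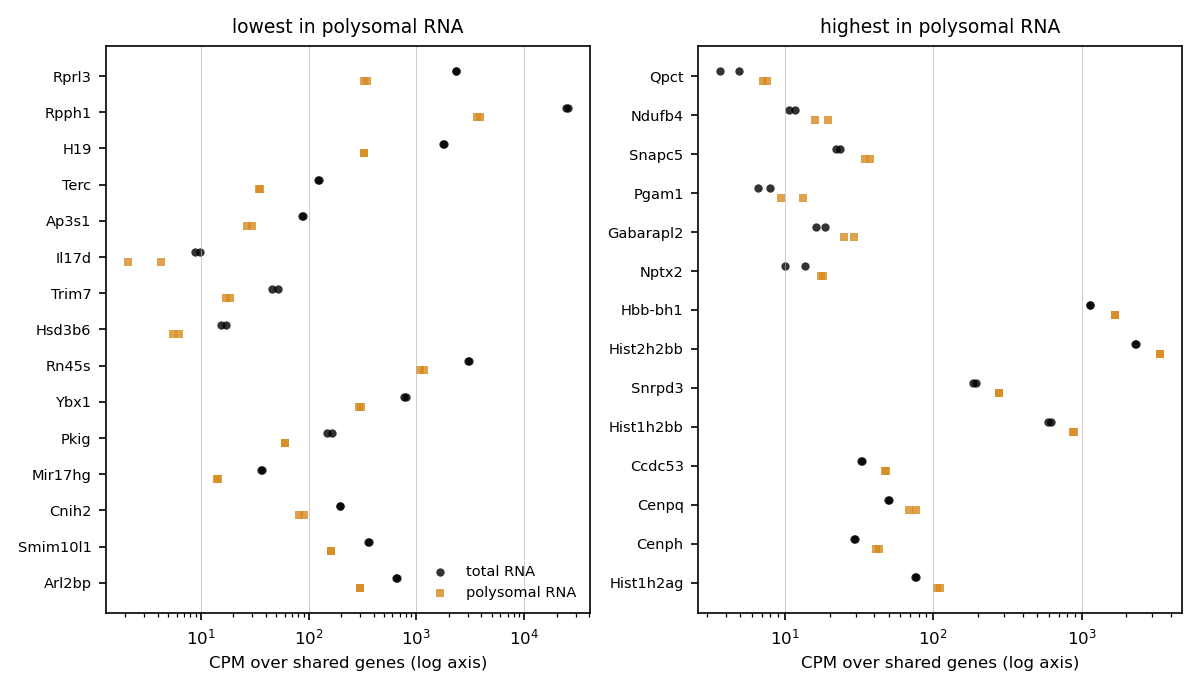
CPM over the shared genes (x axis, log scale) in each of the 4 WT libraries for the 15 genes lowest (left) and 14 of the 15 highest (right) in polysomal RNA, 1 row per gene. Black circles are the 2 total RNA and orange squares the 2 polysomal libraries; the gaps on the left reach 6.85-fold (Rprl3) and those on the right at most 1.71-fold (Qpct).

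Messenger RNAs of the cytoplasmic ribosome were mostly lower in polysomal RNA. These mRNAs are the textbook case of translation controlled through a terminal oligopyrimidine (TOP) tract, a cytosine at the first base of the transcript followed by a run of pyrimidines. Of the 34 tested ribosomal protein genes 19 were lower and 3 higher. For the large subunit 8 of 18 tested genes were lower and 3 higher, with a median log2 fold change of -0.18, and for the small subunit 11 of 16 were lower and none higher, with a median of -0.17. Only 18 of 49 large-subunit and 16 of 34 small-subunit genes are in both tables, and 31 of the 34 share over 5% of their windows with other genes, where processed pseudogenes can take or give reads. The 3 without such sharing were all lower. The differences ranged from -1.06 to 0.36. Rpl36 was the lowest, at 17.73 and 15.09 CPM in total and 8.325 and 7.387 CPM in polysomal RNA (-1.06 ± 0.19). Rplp1, a protein of the ribosomal stalk, fell from 942.5 and 928 CPM to 590.3 and 602.6 CPM (-0.65 ± 0.03, adjusted p = 8.34e-14). Rps27l, a paralogue of a small-subunit protein, fell from 175.5 and 183.9 CPM to 131 and 132.1 CPM (-0.45 ± 0.05), whereas the value of Rps7 (-0.65 ± 0.17) moved with single libraries. It was at -0.42 without replicate 1 of total RNA and did not pass without replicate 2 of polysomal RNA (-0.47, adjusted p = 0.086). The 3 higher ones were Rpl36al (0.36 ± 0.09), Rpl39 (0.13 ± 0.04) and Rpl7 (0.13 ± 0.04), the last 2 named after their values were seen. Rpl39 did not pass without replicate 2 of polysomal RNA (0.10), nor Rpl7 without replicate 1 of total RNA (0.10) or of polysomal RNA (0.11).

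The start sites of these mRNAs were read from RefSeq (GRCm38.p6). A start of the TOP kind (C at the first base, then 4 bases that are each C or T, on the gene's strand) was found at 4 of 23 tested ribosomal protein genes with a RefSeq start (17.4%), at 142 of 4360 tested genes (3.26%) and at 813 of 27025 genes with a RefSeq start (3.01%). The median log2 fold change of those 142 genes was -0.03 and that of the 4 ribosomal protein genes -0.15. The starts of the 4 ribosomal protein genes and of the 2 other listed TOP genes that hold the pattern are shown to set the tract beside its value, 10 bases before the start and 20 from it, with the pyrimidine run in capitals.
Eif3f (chr7:108934405-108934434, plus strand): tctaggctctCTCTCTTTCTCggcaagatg
Rpl14 (chr9:120571507-120571536, plus strand): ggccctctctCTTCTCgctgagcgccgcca
Rplp2 (chr7:141447641-141447670, plus strand): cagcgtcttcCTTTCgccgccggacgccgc
Rps21 (chr2:180257369-180257398, plus strand): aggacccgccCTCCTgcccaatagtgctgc
Rps6 (chr4:86857348-86857377, minus strand): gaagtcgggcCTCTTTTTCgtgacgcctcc
Nap1l1 (chr10:111473217-111473246, plus strand): gctctcgggtCTTTTTTagcgccatctgct
Eif3f, a subunit of initiation factor eIF3, was at 691.5 and 698.8 CPM in total and 524.1 and 499.2 CPM in polysomal RNA (-0.44 ± 0.03, adjusted p = 3.41e-10). Rpl14 was at 464.9 and 473.3 CPM against 360.9 and 377.8 CPM (-0.34 ± 0.03), and Rplp2 at 176.3 and 167.4 CPM against 138 and 145.4 CPM (-0.28 ± 0.05). The other 3 with the same kind of start, Rps21 (-0.03), Rps6 (0.02) and Nap1l1 (-0.03), did not pass the test. Starts of this kind were therefore printed for 3 genes called lower and 3 not called. In every gene printed here the base before the marked start is also a pyrimidine, so the run extends upstream of it. Whether RefSeq starts mark the first base used in this tissue was not tested, so the shares above may miss genes with a tract.

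The factors that act with the ribosome were divided. Of 16 tested elongation factors and other classical TOP mRNAs, 8 were lower and 2 higher in polysomal RNA, with a median of -0.10. Eef1a1, which brings aminoacyl-tRNA to the ribosome and was named after its values were seen, was at 3484 and 3511 CPM in total and 2753 and 2771 CPM in polysomal RNA (-0.34 ± 0.02). Eef1a2, its neuronal and muscle paralogue, had the lowest value of the list (-0.98 ± 0.27) at no more than 7.878 CPM in any library, and did not pass without replicate 2 of polysomal RNA (-0.69, adjusted p = 0.166). Tpt1, a growth-related TOP mRNA, was at 43.92 and 28.86 CPM against 27.22 and 24.07 CPM (-0.51 ± 0.15), and at -0.17 without replicate 1 of total RNA (adjusted p = 0.367). In the other direction, Eif5a, a factor that helps ribosomes past difficult peptide bonds, rose from 858.1 and 831.8 CPM to 1005 and 1004 CPM (0.25 ± 0.02). Of 18 initiation factors and regulators 7 were higher and 5 lower, and the sign of their median (-0.05) changed without TMM (0.005) and without replicate 1 of total RNA (0.007). The lower count was 3 without either polysomal library. Eif4ebp2, a repressor of cap-dependent initiation, fell from 424 and 402.6 CPM to 260.3 and 262.9 CPM (-0.66 ± 0.04, adjusted p = 1.8e-11), and Eif4a2, a helicase paralogue, had a log2 fold change of -0.36 ± 0.05. Eif1a (0.28 ± 0.05) and Eif2s1 (0.24 ± 0.05), which act in start codon selection and in delivery of the initiator tRNA, were higher.

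Messenger RNAs of mitochondrial energy metabolism and of the proteasome were mostly higher in polysomal RNA. Of 42 nuclear-encoded genes of oxidative phosphorylation 24 were higher and 2 lower, with a median of 0.17. Ndufa4, a subunit of the respiratory chain, rose from 147.5 and 131.2 CPM to 197.1 and 190.5 CPM (0.47 ± 0.06, adjusted p = 1.98e-06). Cyc1, cytochrome c1 of complex III, named after its values were seen, was at 164.2 and 169.8 CPM against 218.4 and 222.1 CPM (0.40 ± 0.05). The 2 lower members were Atp5e, the epsilon subunit of ATP synthase, which fell from 426.2 and 390 CPM to 319.9 and 312.3 CPM (-0.37 ± 0.04), and Cox7a2l (-0.29 ± 0.05), which links respiratory complexes. Mitochondrial ribosomal proteins gave 13 higher and 2 lower of 42, with a median of 0.15. Without either polysomal library 8 were higher and 1 lower. Mrpl41 had the highest value (0.48 ± 0.08) and Mrps24 the lowest (-0.52 ± 0.07, from 103.6 and 103 to 73.74 and 70.5 CPM). In the proteasome, the protease complex that degrades ubiquitin-tagged proteins, 12 of 18 subunits were higher and none was lower, with a median of 0.20. Psmb2, a core subunit, rose from 116 and 131.9 CPM to 164.4 and 177.5 CPM (0.46 ± 0.06, adjusted p = 9.87e-06), and Psmd12, of the regulatory particle, from 142.3 and 128.6 to 170.4 and 171.8 CPM (0.34 ± 0.06). The fractions do not overlap for any of the members named here, as is so for 65.8% of all tested genes. These mRNAs are short: the median coding length was 438 nt for oxidative phosphorylation and 573 nt for mitochondrial ribosomal proteins, against 1386 nt over all tested genes. With an offset for transcript length 13 were higher and 4 lower for oxidative phosphorylation, 8 and 5 for the mitochondrial ribosome, and 10 and 0 for the proteasome. The mRNAs of the cytoplasmic ribosome, described above, had a median coding length of 466 nt. With that offset their medians were -0.26 (large subunit) and -0.27 (small subunit). The cause of these differences was not tested.

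**Figure D3:**
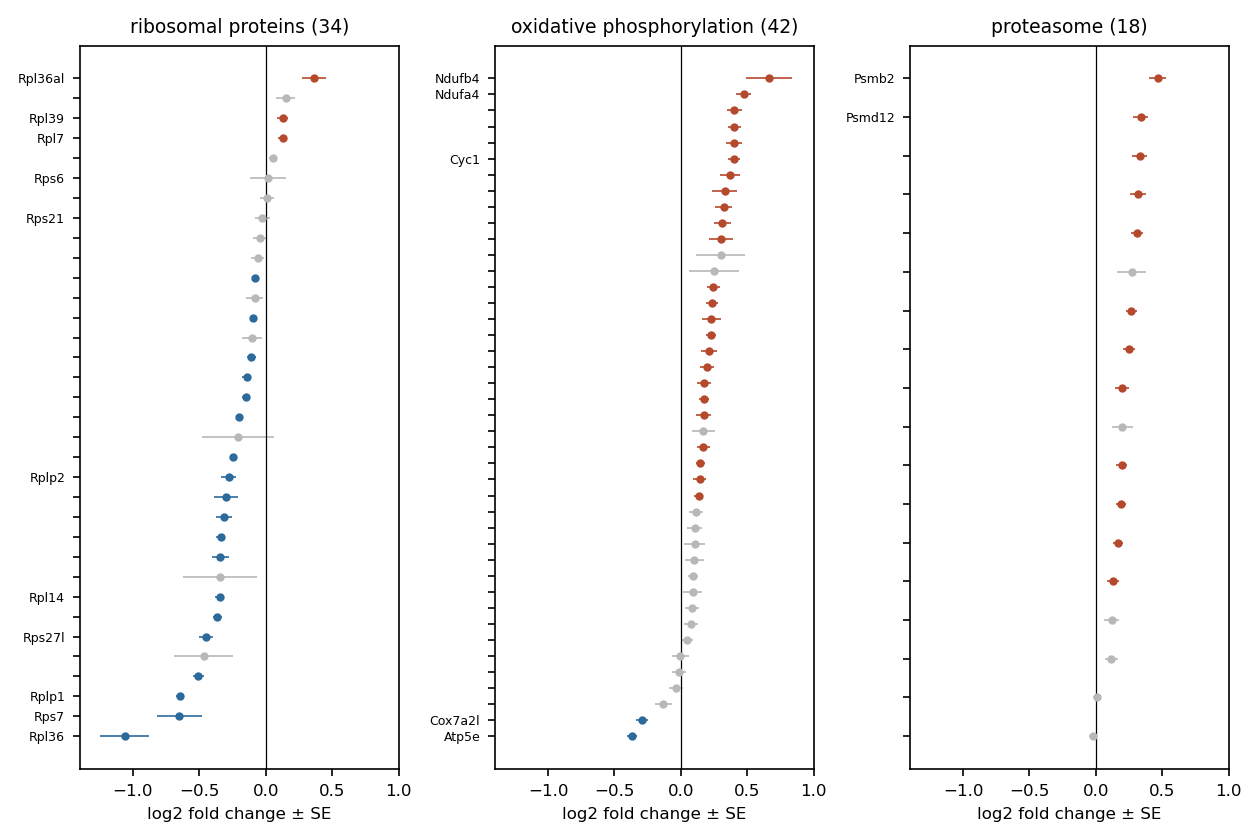
Log2 fold change of WT polysomal minus total RNA (x axis, with its standard error) for each tested gene of the cytoplasmic ribosome (left), oxidative phosphorylation (middle) and the proteasome (right). Genes described in the text are labelled. Red marks genes that were higher, blue lower and grey not past the threshold; 19 of 34 ribosomal protein genes are blue, 24 of 42 oxidative phosphorylation genes and 12 of 18 proteasome genes are red.

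Most histone mRNAs were also higher in polysomal RNA. Replication-dependent histone mRNAs end in a stem-loop in place of a poly(A) tail and are made during DNA synthesis. Of 48 tested histone genes 32 were higher and 5 lower, with a median of 0.20, and their summed level rose from 28020 and 27450 CPM to 33060 and 32900 CPM. Nearly all resemble one another: 41 of the 48 share over 5% of their windows with other genes, and of the 7 that do not, 3 were higher and 1 lower, with a median of 0.02. Hist1h1d, a linker histone with 2.25% of its windows shared, named after its values were seen, rose from 1050 and 1011 CPM to 1409 and 1408 CPM (0.45 ± 0.02, adjusted p = 5.23e-12). The 5 lower ones were Hist1h2bp, Hist1h2ad, Hist1h3d, Hist2h3b and H2afv, 3 of them named after their values were seen. Hist2h3b did not pass without replicate 1 of total RNA (-0.24) or of polysomal RNA (-0.21). Hist1h3d, an H3 gene, was at 473.7 and 525.2 CPM in total and 334.3 and 378.5 CPM in polysomal RNA (-0.49 ± 0.05). Hist1h2bp (-1.49 ± 0.44) rested on 1 library: it was at 29.25 and 4.69 CPM in total and 6.475 and 5.668 CPM in polysomal RNA, so the fractions overlap, and its log2 fold change was 0.37 without replicate 1 and -2.27 without replicate 2 of total RNA. Hist1h2ad (-0.52 ± 0.18) did not pass without replicate 1 of total RNA (-0.36) or without replicate 1 (-0.39) or 2 (-0.66) of polysomal RNA. Without replicate 1 of total RNA 2 histone genes were lower. The length offset left 22 higher and 10 lower.

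Among 27 tested genes for DNA replication and the G1/S transition 12 were higher and 2 lower, with a median of 0.15, and 7 were higher without replicate 1 of polysomal RNA. Prim1, the catalytic subunit of primase, rose from 95.82 and 77.8 CPM to 110.9 and 116.3 CPM (0.39 ± 0.08, and 0.25 without replicate 2 of total RNA). Pcna, the sliding clamp of DNA polymerases, rose from 262.1 and 269.5 to 349.3 and 322.8 CPM (0.34 ± 0.04, adjusted p = 3.02e-06). E2f1, the transcription factor that drives many of these genes, went the other way, from 255.5 and 269.4 CPM in total to 152.9 and 151.8 CPM in polysomal RNA, 1.72-fold lower (-0.78 ± 0.05, adjusted p = 5.53e-11). Rrm2, the small subunit of ribonucleotide reductase and the other lower member, fell from 437.7 and 455.6 CPM to 403.4 and 399.8 CPM (-0.15 ± 0.03), and was named after its values were seen. For mitosis 11 of 37 genes were higher and 3 lower, with a median of 0.05, and 6 were higher without replicate 1 of polysomal RNA.

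The mRNAs of 3 embryonic globins were higher in polysomal RNA, while the mRNA of their heme-synthesis enzyme was lower. Hbb-bh1, an embryonic beta-like globin, was at 1145 and 1144 CPM in total and 1692 and 1677 CPM in polysomal RNA, 1.47-fold higher (0.56 ± 0.02, adjusted p = 3.67e-14). Hbb-y rose from 3487 and 3539 CPM to 4822 and 4737 CPM (0.44 ± 0.02), and Hba-x from 1967 and 1998 to 2571 and 2525 CPM (0.36 ± 0.02). Alas2, the first enzyme of heme synthesis in red cells, whose mRNA is known to carry an iron-responsive element, fell from 56.82 and 61.18 CPM to 34.16 and 32.48 CPM (-0.82 ± 0.09, adjusted p = 8.52e-07). Tfrc, the transferrin receptor and the second lower gene of the 7 tested red cell genes, had a log2 fold change of -0.11 ± 0.04, and did not pass without replicate 1 of total RNA (-0.06) or replicate 2 of polysomal RNA (-0.07). The 7 genes summed to 0.703% and 0.713% of counts in total and 0.977% and 0.961% in polysomal RNA. The 3 globins made up most of that sum, so its rise was theirs and was not shared by Alas2 and Tfrc. In whole tissue, fewer cells of a type and less RNA per cell cannot be told apart.

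Some mRNAs with well-known translational control were measured. Atf4, the stress transcription factor whose upstream reading frames hold back its translation in unstressed cells, was at 400.1 and 405.7 CPM in total and 325.8 and 315.6 CPM in polysomal RNA (-0.33 ± 0.03, adjusted p = 3.04e-07). Of the 11 tested mRNAs of that stress list 2 were lower and 1 higher. A list of 10 mRNAs with known structured or recoding control held 5 higher and 3 lower, and 3 higher and 2 lower without replicate 2 of polysomal RNA. Odc1, the first enzyme of polyamine synthesis, fell from 224.1 and 214.3 CPM to 152.2 and 151 CPM (-0.53 ± 0.05), with 42.2% of its windows shared with another gene. Sepw1, a small selenoprotein, fell from 351.1 and 344.8 CPM to 222.7 and 225.4 CPM (-0.63 ± 0.04), whereas Sepp1, the secreted selenium carrier, rose from 142.4 and 140.1 to 172.6 and 179.8 CPM (0.32 ± 0.05).

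Progenitor and neuronal mRNAs held calls in both directions. Of 36 tested neural progenitor genes 9 were higher and 11 lower, and the sign of their median (-0.05) changed without TMM (0.001). The higher count was 2 without replicate 1 and 4 without replicate 2 of polysomal RNA. Hes5, a transcriptional repressor downstream of Notch, was at 468.7 and 475.6 CPM in total and 349.1 and 334.7 CPM in polysomal RNA (-0.47 ± 0.03, adjusted p = 1.05e-09). Notch3, a Notch receptor, fell from 401 and 395.2 CPM to 299.2 and 312.1 CPM (-0.38 ± 0.04), and Notch1 had a log2 fold change of -0.23 ± 0.03. Hes6 (0.23 ± 0.04) and the marker Pax6 (0.21 ± 0.06, and not past the threshold without replicate 1 of polysomal RNA at 0.17) were higher, and the marker Nes, the intermediate filament nestin, was lower (-0.16 ± 0.02). Among 38 neuronal genes 10 were lower and 4 higher, with a median of -0.06, and 2 were higher without either polysomal library. The lowest were Map1a, a microtubule-associated protein with a coding length of 9045 nt, which fell from 121 and 125.3 CPM to 93.95 and 86.54 CPM (-0.45 ± 0.07), and the neurofilament gene Nefm (-0.44 ± 0.05). The marker Dcx, a microtubule protein of migrating neurons, was slightly higher (0.09 ± 0.02, adjusted p = 0.00377), but not without replicate 2 of polysomal RNA (0.08, adjusted p = 0.0515).

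The chromatin, extracellular matrix and axon guidance lists held more lower than higher calls. Of chromatin enzymes 47.7% were lower and 15.9% higher, against 18.1% and 16.5% over all tested genes. Among chromatin enzymes, with a median coding length of 4791 nt, 21 of 44 were lower and 7 higher, with a median log2 fold change of -0.11, and 4 were higher without replicate 2 of polysomal RNA. Ezh2, the methyltransferase of the Polycomb repressive complex, fell from 365.8 and 369.9 to 273.4 and 266.6 CPM (-0.45 ± 0.04, adjusted p = 6.84e-09). Cbx1, a small heterochromatin protein with a coding length of 558 nt, was the highest of this list (0.31 ± 0.04). The extracellular matrix list, with a median coding length of 4539 nt, held 11 lower and 2 higher of 30, with a median of -0.18, and no higher one without replicate 2 of polysomal RNA. Col2a1, the collagen of cartilage and notochord, was at 158.2 and 153 CPM in total and 110.6 and 110.1 CPM in polysomal RNA (-0.50 ± 0.06). Of 32 axon guidance genes 11 were lower and 4 higher, and without replicate 1 of polysomal RNA 7 were lower and 2 higher. The lowest, Efna2, an ephrin with a short coding sequence of 630 nt, fell from 258.5 and 257.4 CPM to 160.3 and 161.6 CPM (-0.68 ± 0.05, adjusted p = 2.73e-10). Plxnb1, a semaphorin receptor of 6360 nt, had a log2 fold change of -0.43 ± 0.04.

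Targets of the let-7 microRNAs, the family that Lin28 proteins restrain, included more lower than higher calls. Of 42 tested let-7 targets 15 (35.7%) were lower and 7 (16.7%) higher, with a median of -0.06. Over all tested genes 18.1% were lower and 16.5% higher. Rbms2, an RNA-binding protein, fell from 282.9 and 266.6 CPM to 153.2 and 147 CPM (-0.87 ± 0.05, adjusted p = 1.25e-11), and Hras, a small GTPase of growth signalling, from 126.7 and 121 to 70.23 and 69.54 CPM (-0.83 ± 0.07). Onecut2, a transcription factor of developing neurons, was the highest, at 756.4 and 768.5 CPM in total and 962.5 and 984.3 CPM in polysomal RNA (0.35 ± 0.03). In the insulin and growth factor pathway 7 of 21 genes were lower and 4 higher, and 4 were lower and 1 higher without either polysomal library. Igf2, the main embryonic growth factor ligand of that pathway, was lowest: it fell from 1143 and 1126 CPM to 675.8 and 694.7 CPM (-0.73 ± 0.03, adjusted p = 6.86e-15), and 90.5% of its windows also occur in transcripts of another gene. Its receptor gene Igf1r had a log2 fold change of -0.33 ± 0.04.

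**Figure D4:**
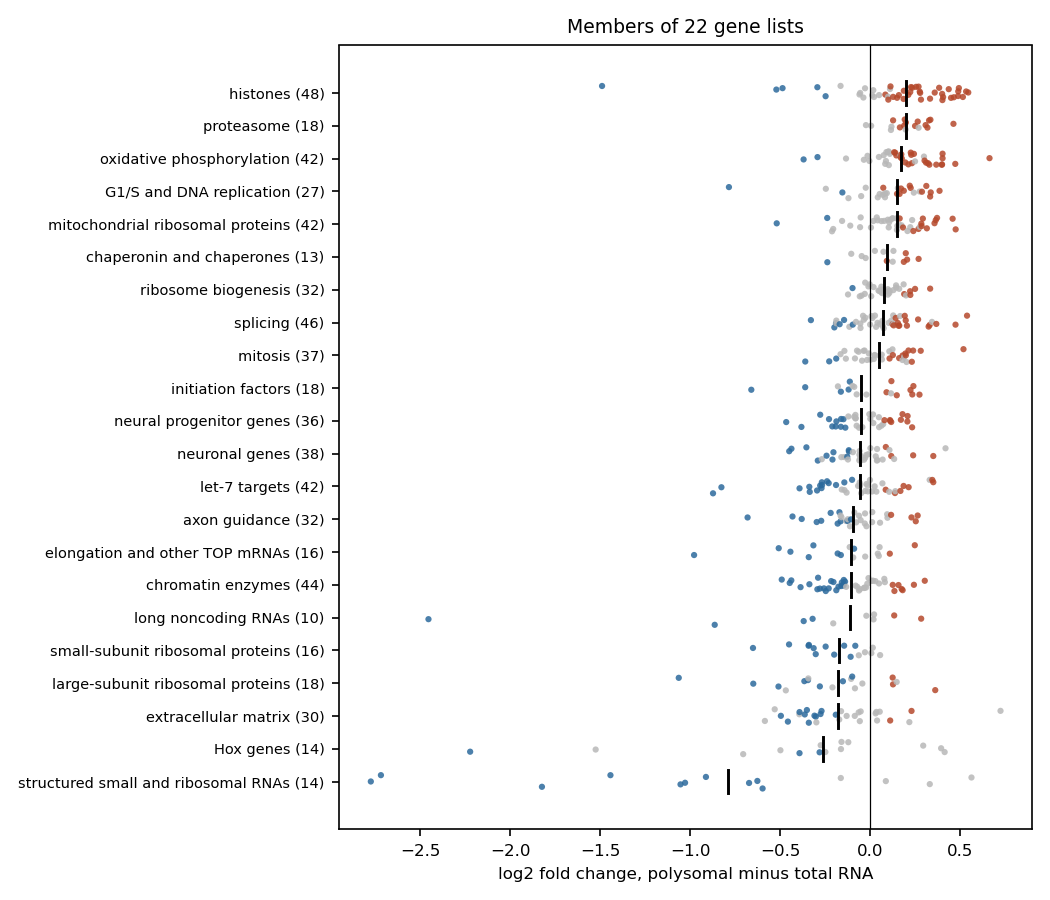
Log2 fold change of WT polysomal minus total RNA (x axis) for the tested members of 22 gene lists, 1 row per list with the number of tested genes in brackets. Each point is a gene (red higher, blue lower, grey not past the threshold) and the black bar is the list's median, which runs from -0.79 for structured RNAs to 0.20 for the proteasome and the histones.

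Across all 5565 protein-coding genes, the log2 fold change declined with coding length, with transcript length and with GC content. Its Spearman correlation was -0.17 with coding length, -0.167 with transcript length and -0.22 with transcript GC content. The genes share the same 4 libraries, so these are descriptions. Each property was a weak predictor for a single gene. By transcript length, the shortest quintile had a median of 0.08 (28.2% higher, 14.6% lower) and the longest -0.03 (13.3% higher, 22% lower). The 171 genes with a coding sequence above 6000 nt had a median of -0.13, with 70 (40.9%) lower and 8 (4.68%) higher. Those between 300 and 600 nt (666 genes) had a median of 0.05, with 127 (19.1%) lower and 194 (29.1%) higher. The shortest class did not continue the trend: of 118 genes up to 300 nt, 41 (34.7%) were lower and 24 (20.3%) higher, with a median of -0.02. By GC content, the lowest quintile had a median of 0.04 and the highest (57.31% GC or more) -0.08. Within quintiles of GC content, the correlation of coding length with the log2 fold change ran from -0.05 in the lowest to -0.24 in the middle one. The length of the leader, that of the trailer, start codons in the leader and the A/U-rich motif count in the trailer had correlations from -0.08 to 0.02. The relations cannot be told apart from any effect of length or GC content on the 2 sets of libraries.

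**Figure D5:**
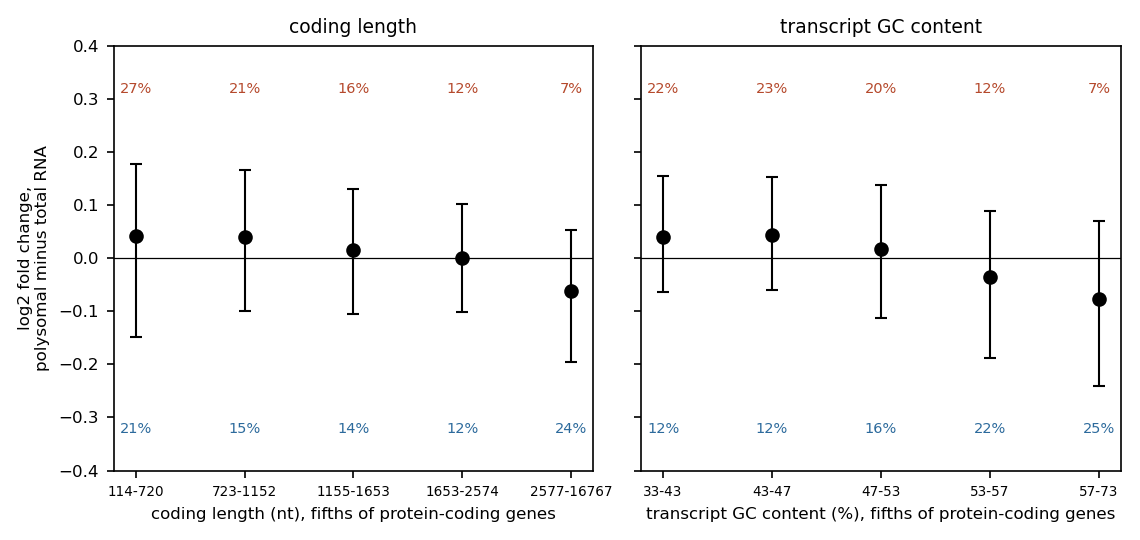
Median log2 fold change of WT polysomal minus total RNA (y axis; bars span the middle 50% of genes) in quintiles of the protein-coding genes by coding length (left, nt) and transcript GC content (right, %). Red numbers at the top are the percentage of genes called higher and blue numbers at the bottom the percentage called lower; for coding length the higher share falls from 27% to 7.37%.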

How the data were processed

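Raw counts of reads per gene were deposited by the authors in 2 tables, 1 for total and 1 for polysomal RNA. Libraries were strand-specific and made from Trizol-extracted RNA, per the labels' protocols. The tools in the submitters' processing notes are FastQC, TopHat and HTSeq, and the builds are mm9, mm10 and GRCm38, without versions or roles. The sources used here do not give the polysome protocol, the annotation, the strand setting or the handling of multiply mapped reads.

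The tables were joined by symbol; 4 total RNA rows and 2 polysomal rows with symbols turned into dates were left out. The 4 WT libraries were fitted alone with edgeR 4.0.16 in R 4.3.3 (filterByExpr, TMM over the shared genes, quasi-likelihood F test, Benjamini-Hochberg adjustment, threshold 0.05). Standard errors were taken as |log2 fold change| over the root of the F statistic. CPM used TMM-scaled sizes; cell type markers are the exception, as CPM of the whole total RNA table. With 2 libraries a group, SDs are given in no sentence and single values in their place. Chi-square per degree of freedom between replicates was 3.18 (total) and 2.89 (polysomal), so no replicate pair differed by sampling noise alone. The biological coefficient of variation was 0.0342. On simulated counts the test recovered 78%, 98%, 100% and 100% of 50 genes each changed by 0.25, 0.5, 1 and 2 on the log2 scale, with 8 unchanged genes called of 5738.

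Symbols were matched to GENCODE M21 on GRCm38 for 99.2% of genes (5589 by symbol, 169 by synonym, 44 unmatched) for lengths, GC content, the share of 50-base windows that occur in transcripts of another gene, and overlap with exons of the other strand. The named genes are the 15 highest and 15 lowest among those called with fractions that do not overlap and 5 CPM or more on average, up to the 2 highest and 2 lowest of each list, the marker genes, Lin28a and Lin28b, and others marked where they appear; predicted genes were to be left out, and none occurred. Some genes that the rule selects are not reported here. The members, the lists and the comparison were chosen with earlier results of these data known, and no list was tested as a set. Alternatives were RLE, upper-quartile and no scaling, TMM without noncoding genes, DESeq2 1.42.0, limma-voom (limma 3.58.1), other filters, the replicate number as a block, all 8 libraries in 1 fit, each library left out, offsets for GC content and length (loess, span 0.5), and, added after the data were seen, fits without genes that share windows, without genes that overlap on the other strand, and of protein-coding genes alone.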

Additional observations from a re-analysis of the deposited data

How the results depend on the processing

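Of the 1981 genes called, 1975 kept their direction in every alternative in which they were tested, 672 were called in all of them and 1081 with each library left out. Counts fell most in the fit of all 8 libraries with 4 group means, with 693 genes called, 201 higher and 492 lower; there histones gave 19 higher and 2 lower, oxidative phosphorylation 8 and 2, the proteasome 3 and 0, splicing 3 and 0, the mitochondrial ribosome 1 and 1, initiation factors 0 and 2, mitosis 0 and 2, neural progenitor genes 0 and 6, neuronal genes 1 and 5, DNA replication 4 and 1, let-7 targets 2 and 7, chromatin enzymes 1 and 10, extracellular matrix 0 and 4, axon guidance 1 and 5, and lower calls for 7 large-subunit and 6 small-subunit ribosomal protein genes. DESeq2 called 1443 genes and limma-voom 1975. Without TMM 1446 genes were higher, and the median over all genes moved from 0.00 to 0.06. A log2 size of at least 1 left 34 genes, by construction fewer. Without genes that share windows the histone median was 0.03, with 7 genes tested. Leaving out 1 library gave 1423 to 2007 genes called, 648 to 973 higher and 760 to 1069 lower. The replicate block gave 2120 called genes. Replicates of the same number did not deviate together (correlation 0.0147), so the numbers are not taken to pair the libraries. Of the 110 genes named in the text, 30 calls were lost in the fit of all 8 libraries, 10 with DESeq2 and 5 with the length offset, among them those of Qpct, Pgam1, Rpl7, Rpl39, Hist1h2bp and Hist1h2ad in at least 1 of these fits. Signs changed for 4 named genes: Nap1l1 (0.026) and Rps21 (0.025) without TMM, Rps6 with the length offset (-0.081), and, with 1 library left out, Hist1h2bp (-2.267 to 0.371), Rps21 (-0.06 to 0.006) and Rps6 (-0.045 to 0.079); the cause was not tested. Depth limits genes of a few CPM, where 1 library can set the call.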

Other observations

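The RNA splicing list held 15 higher and 6 lower of 46 tested genes, with a median log2 fold change of 0.07. After Snrpd3, the highest was Snrpc, a protein of the U1 snRNP, at 34.27 and 37.22 CPM in total and 46.38 and 52.98 CPM in polysomal RNA (0.48 ± 0.10, adjusted p = 9.86e-04), with 26.7% of its windows shared with other genes. Without replicate 1 of polysomal RNA 2 splicing genes were lower, and without replicate 2 there were 3. Of 32 ribosome biogenesis genes 5 were higher and 1 lower, with 3 higher without replicate 1 and 2 without replicate 2 of polysomal RNA. As shares of the ribosome biogenesis genes, 15.6% were higher and 3.12% lower, against 16.5% and 18.1% over all tested genes. In the list of the endoplasmic reticulum 7 of 23 genes were higher and 2 lower. It was led by Manf, a secreted stress-response protein, which rose from 203.1 and 222.8 CPM to 280.9 and 287 CPM (0.42 ± 0.05). The sign of that list's median (0.00) changed with the scaling, to 0.05 without TMM.

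Among 158 tested zinc finger genes of the Zfp series, 24 (15.2%) were higher and 19 (12%) lower. Over all tested genes the shares were 16.5% and 18.1%. The higher count was 10 without replicate 1 and 13 without replicate 2 of polysomal RNA. Zfp644 was lowest: it fell from 604.4 and 596.5 CPM to 362.5 and 377 CPM (-0.70 ± 0.03). Zfp36l1, which binds A/U-rich elements and is also an immediate early gene, was next, from 695.8 and 672.7 to 408.1 and 441.4 CPM (-0.69 ± 0.03), and 55.9% of its exon bases lie opposite an exon of the other strand. Of 13 immediate early genes 4 were lower and 1 higher, and 2 were lower without replicate 2 of polysomal RNA. Lars2, the mitochondrial leucyl-tRNA synthetase, was the lowest of 14 tested synthetase genes, at 95.33 and 105.4 CPM in total and 59.53 and 66.36 CPM in polysomal RNA (-0.67 ± 0.08). Of those 14 genes 2 were lower and 3 higher. Lars2 is also on the list of ribosomal and structured small RNAs.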
